A study of Rattus norvegicus with 23 samples.

Results

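The heat shock proteins described here are 10 chaperone genes of the cytosol and of mitochondria, taken by their symbols from the rat count table, where each of the 10 has 1 row among 30452 genes. They are the small heat shock proteins Hspb1 and Hspb8, the cytosolic Hsp70 Hspa8, the Hsp110 proteins Hspa4 and Hsph1, the J protein Dnajb1, both cytosolic Hsp90 genes Hsp90aa1 and Hsp90ab1, and the mitochondrial chaperonin pair Hspd1 and Hspe1. All 10 passed the filter on low counts. They were measured by RNA-sequencing in 2 cell lines from normal rat kidney, the epithelial line NRK-52E (NRKE in the labels) and the fibroblast line NRK-49F (NRKF in the labels). Cells of both lines had no serum for 24 h and were then kept for 48 h in medium of pH 7.4, the control, or in medium brought to pH 6.0 with hydrochloric acid. Each condition has n = 6 samples, apart from acid NRK-49F with n = 5. The labels also give each line a pair of sample groups, 1 and 3 for NRK-52E and 4 and 6 for NRK-49F, each with samples of both pH values and with no word on what a sample group is. Every condition is thus 1 established line in culture.

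Heat shock proteins bind unfolded proteins. Hsp70 proteins such as Hspa8 take up unfolded stretches with the help of J proteins, which bring clients and start ATP hydrolysis, and of Hsp110 proteins, which exchange the nucleotide. Hsp90 finishes the folding of kinases and steroid receptors, the small heat shock proteins hold unfolded clients without ATP, and Hspd1 (Hsp60) with its lid Hspe1 (Hsp10) folds proteins in the mitochondrial matrix. The cytosolic stress response is led by the transcription factor Hsf1, which binds heat shock elements made of inverted GAA units in promoters. In the kidney, epithelial cells and fibroblasts meet acid surroundings in metabolic acidosis, and chaperones are known there for their response to heat, ischemia and toxins.

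Promoters are shown to set those with and without heat shock elements side by side, Hspa8, Hsph1 and Hspe1 for the longer form of the element and Hspa4 for windows without a match. Promoter windows of RefSeq (assembly GRCr8, 250 bases before to 50 after the gene start) were found for 9 of the 10 genes, and for Hsp90aa1 there was no entry. A heat shock element of 3 units, GAANNTTCNNGAA on either strand, stood in the windows of Hsph1, Hspa8, Hspd1 and Hspe1, and in 0.798% of all 33469 promoter windows of this length. Elements of 2 units (GAANNTTC or TTCNNGAA, both counted also inside the longer element and with overlaps) were found in 15.9% of all windows. They were found 2 times for Hspb1 and Dnajb1, once for Hspb8, 3 times for Hsph1, Hspd1 and Hspe1 and 4 times for Hspa8. The windows of Hspa4 and Hsp90ab1 had none of either form, which says only that these letters are not in this window. The 250 bases before the start are printed 5′ to 3′ on the strand of the gene, with matches in capitals.
Hspa8 (chr8:50080264-50080513, plus strand): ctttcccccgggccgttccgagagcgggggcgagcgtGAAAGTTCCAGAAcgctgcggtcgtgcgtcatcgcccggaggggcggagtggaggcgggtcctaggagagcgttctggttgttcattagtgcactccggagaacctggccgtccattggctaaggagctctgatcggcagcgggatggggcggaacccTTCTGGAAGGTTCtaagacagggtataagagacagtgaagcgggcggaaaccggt
Hsph1 (chr12:10427118-10427367, plus strand): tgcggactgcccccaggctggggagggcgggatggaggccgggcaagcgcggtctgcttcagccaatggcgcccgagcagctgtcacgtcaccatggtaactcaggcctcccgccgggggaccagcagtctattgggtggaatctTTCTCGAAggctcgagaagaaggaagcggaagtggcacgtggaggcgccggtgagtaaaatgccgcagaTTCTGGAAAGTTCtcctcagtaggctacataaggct
Hspe1 (chr9:64084077-64084326, plus strand): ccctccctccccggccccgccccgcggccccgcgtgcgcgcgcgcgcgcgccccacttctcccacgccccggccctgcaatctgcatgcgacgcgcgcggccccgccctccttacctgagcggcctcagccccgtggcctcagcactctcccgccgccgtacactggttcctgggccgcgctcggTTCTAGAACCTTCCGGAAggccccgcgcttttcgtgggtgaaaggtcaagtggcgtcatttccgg
Hspa4 (chr10:37949836-37950085, minus strand): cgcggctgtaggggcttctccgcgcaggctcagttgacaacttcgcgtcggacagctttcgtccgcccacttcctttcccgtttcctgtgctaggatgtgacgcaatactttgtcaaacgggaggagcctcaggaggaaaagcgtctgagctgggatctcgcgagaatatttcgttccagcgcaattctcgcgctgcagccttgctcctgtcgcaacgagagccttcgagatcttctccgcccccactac
Hspd1 and Hspe1 lie head to head, and their windows share 211 bases (chr9:64084077-64084287), so the block of capitals printed for Hspe1 is also the one of Hspd1, read on the other strand. The first of 2 elements of 3 units in Hspa8 starts 213 bases before the gene start and the other 55 bases before it. In Hsph1, 1 such element starts 36 bases before the gene start.

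Libraries held between 16412564 and 34250535 counts. Genes named as defining markers of an epithelium did not mark NRK-52E cells. Of 7 epithelial markers in the table, only Krt8 passed the filter, with 499 ± 76.4 FPM (counts relative to the scaled library size, SD, n = 6) in NRK-52E and 839 ± 193 FPM (n = 6) in NRK-49F cells at pH 7.4, while Cdh1, Epcam and Krt18 stayed below 1 FPM in all samples. The fibroblast genes Col1a2 and Pdgfra were at 4476 ± 356 and 306 ± 48.5 FPM in NRK-49F cells at pH 7.4 (n = 6), against medians of 5.79 and 1.26 FPM in NRK-52E cells. Thy1 was at 0 in both lines at pH 7.4. Col3a1 was the other way round, with 6149 ± 1378 FPM in NRK-52E and 1212 ± 111 FPM in NRK-49F cells. The summed level of the 9 fibroblast markers ranged from 4977 to 8160 FPM in NRK-52E cells at pH 7.4 and from 1842 to 3120 FPM at pH 6.0. Most of it was Col3a1 in these cells, with means of 6149 and 2402 FPM. In NRK-49F cells the sum ranged from 10523 to 13448 FPM and from 7101 to 9607 FPM, and the part of these shifts in the results was not tested. By the test, 7 of 8 fibroblast markers fell at pH 6.0 in the epithelial line and 3 of 8 in the fibroblast line. Of all genes, 36.6% and 14.4% fell. In the fibroblast line Col3a1 changed by -1.49 ± 0.17 on the log2 scale (SE, adjusted p = 5.47e-07). In the NRK-52E controls Col1a2 (0.415 to 52.9 FPM) and Pdgfra (0.679 to 4.73 FPM) varied widely between libraries. In NRK-52E cells Lum was among those that fell (adjusted p = 0.00392), from 0 to 2.35 FPM at pH 7.4, highest in A021, to 0 in all 6 samples at pH 6.0, so no fold is given. Krt8 fell in both, with log2 changes of -1.17 ± 0.14 (adjusted p = 1.02e-07) and -0.57 ± 0.14 (adjusted p = 0.00409). Certain libraries stood apart and are given by their codes. A021 (NRK-52E, pH 7.4) held the most Col1a2 of its condition, 52.9 FPM. A035 (NRK-52E, pH 7.4) and A042 (NRK-49F, pH 6.0) had the highest summed level of 76 ribosomal protein genes of their conditions, 88615 and 127747 FPM, against 53205 to 61414 and 63815 to 97003 FPM in the others.

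Over both sample groups of each line, acidosis raised most of these chaperones in NRK-52E cells and few in NRK-49F cells. The rise in NRK-52E cells was uneven. Within sample group 1, 2 of the 10 were called, and within sample group 3, 7 were, all higher. Of all genes, 46% and 55.9% were called there in either direction. At pH 6.0, 7 of the 10 genes were higher than at pH 7.4 in NRK-52E cells and 0 were lower (edgeR quasi-likelihood test, adjusted p under 0.05). Of all genes tested there, 61.2% were called, 24.7% as higher and 36.6% as lower. In NRK-49F cells 2 of 10 were higher and 0 lower, where 28.9% of all genes were called, 14.5% as higher and 14.4% as lower. The 10 genes were chosen with earlier results of these data known, so these counts are a description. Also at an unadjusted p under 0.05 and by DESeq2, 0 of the 10 were lower in either line. The median log2 fold change of the 10 genes was 0.38 in NRK-52E, beside -0.12 for all genes tested, and 0.10 in NRK-49F, beside 0.0009 for all genes. Together the 10 genes took 0.364% ± 0.0176 of all counts in NRK-52E cells at pH 7.4 (SD, n = 6) and 0.457% ± 0.0746 at pH 6.0 (n = 6). At pH 6.0 this share was 0.384 to 0.397% in sample group 1 and 0.511 to 0.539% in sample group 3. The controls of both sample groups were at 0.342 to 0.385%. In NRK-49F cells their share was 0.562% ± 0.0229 (n = 6) and 0.576% ± 0.0292 (n = 5). The acid response itself differed between the lines for 2 of the 10 genes, Hspa4 and Dnajb1, by edgeR's quasi-likelihood test, where 41.4% of all genes differed in either direction. With the sample group as a block, Hspb8 (0.79 ± 0.32, SE, adjusted p = 0.0492) and Hsp90aa1 (0.32 ± 0.13, adjusted p = 0.0489) passed too. Hsp90aa1 also passed without A025 (adjusted p = 0.0499) and Hspb8 without A021, as given below. By DESeq2 it was Hspb8 (0.84 ± 0.35, adjusted p = 0.0373) and Hsp90ab1 (0.22 ± 0.09, adjusted p = 0.0275). For genes whose difference did not pass, a change called in 1 line alone is not shown to be particular to it.

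**Figure D1:**
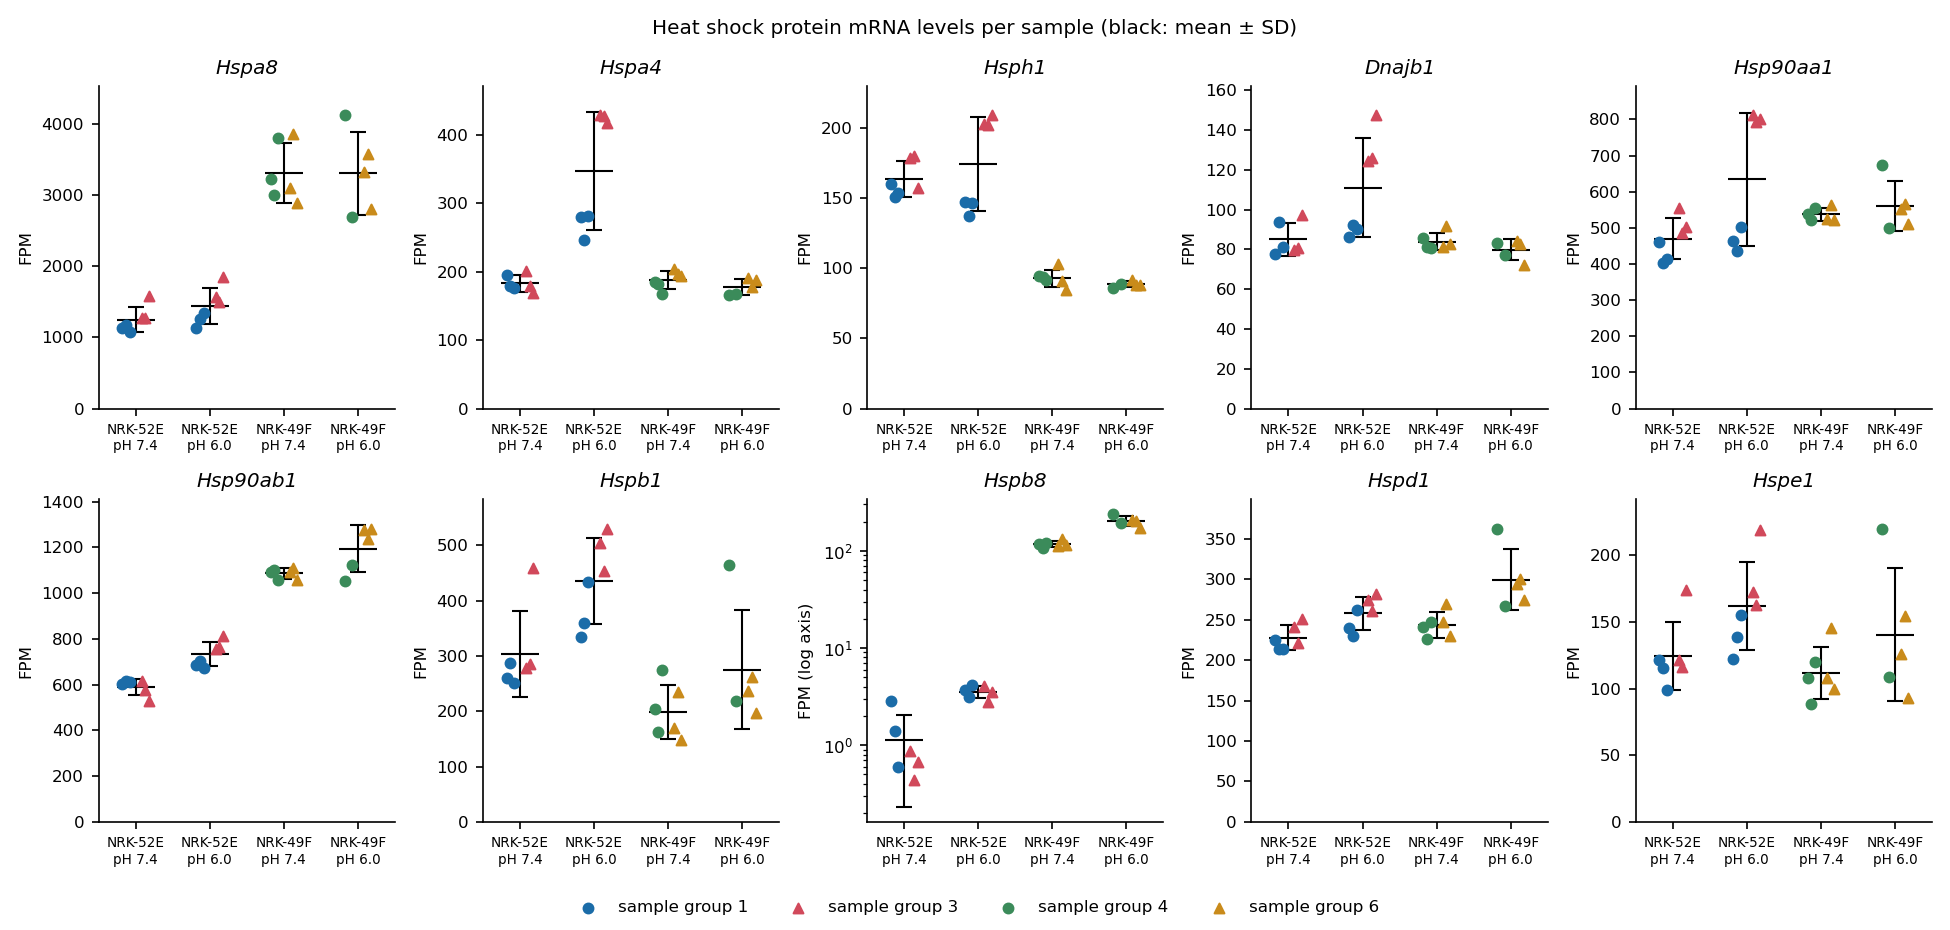
Level of each heat shock protein mRNA in every sample, in FPM (log axis for Hspb8 only), by cell line and pH, with colours and symbols for the sample groups and black bars for mean ± SD. In Hspa4 the NRK-52E samples at pH 6.0 (246 to 428 FPM) lie above all others, and those of sample group 3 above those of sample group 1.

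**Figure D2:**
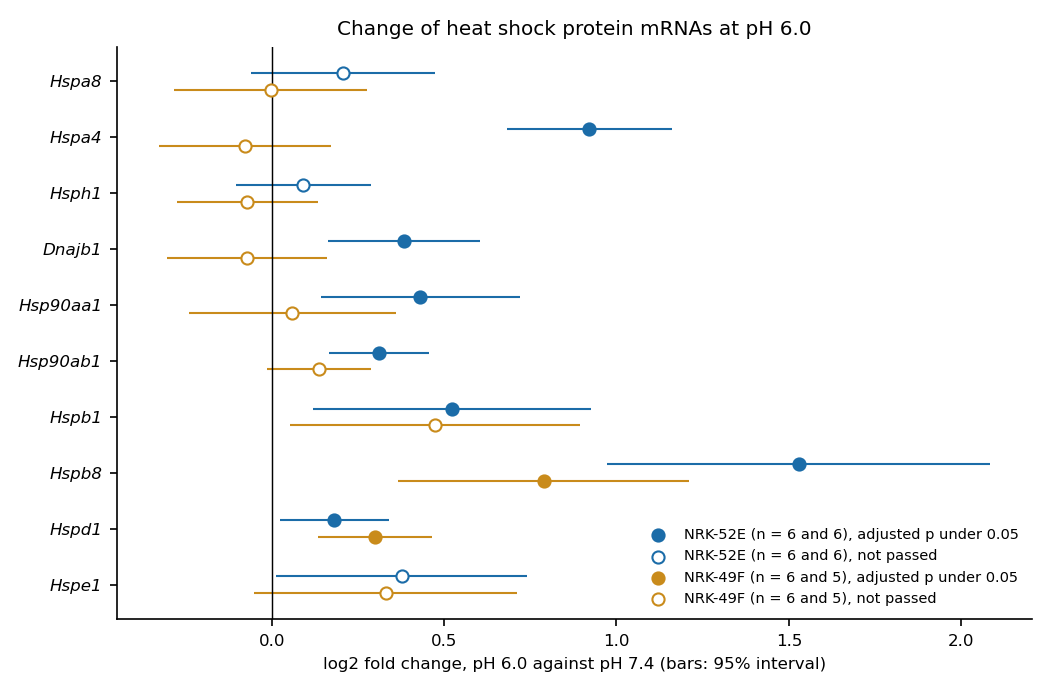
Log2 fold change from pH 7.4 to pH 6.0 of each gene in both lines with its 95% interval, filled where the adjusted p was under 0.05. Hspb8 and Hspa4 changed most in NRK-52E cells, and Hspb8 and Hspd1 are the filled points of NRK-49F cells.

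Hspa8 (ENSRNOG00000034066, chromosome 8), the constitutive cytosolic Hsp70, did not pass the test in either line. In NRK-52E cells it ranged from 1071 to 1585 FPM (median 1221, n = 6) at pH 7.4 and from 1138 to 1854 FPM (median 1425, n = 6) at pH 6.0. In NRK-49F cells it ranged from 2898 to 3865 FPM (median 3160, n = 6) and was 4126, 2695, 3327, 3585 and 2807 FPM at pH 6.0. The groups overlap in both lines, and the log2 fold changes were 0.21 ± 0.13 (SE, adjusted p = 0.173) in NRK-52E and -0.0033 ± 0.14 (adjusted p = 0.993) in NRK-49F, with 95% intervals of -0.06 to 0.47 and -0.28 to 0.28. Its count is uncertain, since multi-mapping reads were counted. The rows AABR07011951.1 (chromosome 2, annotated as protein-coding) and AABR07048992.1 (chromosome 5, annotated as lncRNA) held 18.3 to 20.3% and 24.6 to 30.2% of the Hspa8 count in all 23 samples, with correlations of 0.998 and 0.995 to it, and whether these rows share reads with Hspa8 was not tested.

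Hspa4 (ENSRNOG00000016596, chromosome 10), a nucleotide exchange factor of Hsp70, gave the clearest separation. In NRK-52E cells at pH 7.4 it was between 169 and 201 FPM (median 179, n = 6), and at pH 6.0 it was 280, 246 and 281 FPM in sample group 1 and 428, 428 and 418 FPM in sample group 3. No sample at pH 6.0 overlapped those at pH 7.4. Without regard to direction this held for 38.6% of all genes, and for 15.4% with higher values at pH 6.0. The log2 fold change was 0.92 ± 0.12 (SE, adjusted p = 2.98e-07). In NRK-49F cells the ranges of 167 to 204 FPM (n = 6) and 166 to 191 FPM (n = 5) overlapped, with a log2 fold change of -0.08 ± 0.12 (adjusted p = 0.674). The difference of both responses was 1.00 ± 0.17 on the log2 scale (adjusted p = 4.25e-05).

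Hsph1 (ENSRNOG00000000902, chromosome 12), the stress-inducible Hsp110, changed in neither line when all samples were taken. It was at 151 to 180 FPM (median 159, n = 6) in NRK-52E cells at pH 7.4, and at pH 6.0 its values split into 147, 137 and 147 FPM in sample group 1 and 203, 202 and 209 FPM in sample group 3. The log2 fold change over both was 0.09 ± 0.09 (SE, adjusted p = 0.415). In NRK-49F cells it stayed between 84.2 and 103 FPM at pH 7.4 and 86.0 and 91.6 FPM at pH 6.0, with -0.07 ± 0.10 (adjusted p = 0.645).

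Dnajb1 (ENSRNOG00000021824, chromosome 19), the Hsp40 that serves Hspa8 under stress, was at 77.9 to 97.2 FPM (median 80.8, n = 6) in NRK-52E cells at pH 7.4. At pH 6.0 it was 86.0, 92.0 and 90.5 FPM in sample group 1 and 124, 126 and 147 FPM in sample group 3. The samples of sample group 1 lie inside the control range and those of sample group 3 above it. Over all samples the log2 fold change was 0.38 ± 0.11 (SE, adjusted p = 0.00324), in NRK-49F cells it was -0.07 ± 0.11 (adjusted p = 0.683), and the difference was 0.46 ± 0.15 (adjusted p = 0.0213). Between sample groups 1 and 4 alone the difference did not pass (0.13 ± 0.14, adjusted p = 0.546). NRK-49F samples ranged from 80.9 to 91.7 FPM at pH 7.4 and from 72.0 to 84.4 FPM at pH 6.0.

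The Hsp90 genes both rose in NRK-52E cells. Hsp90aa1 (ENSRNOG00000059714, chromosome 6), the inducible form, was at 404 to 555 FPM (median 474, n = 6) at pH 7.4. At pH 6.0 it was 464, 435 and 502 FPM in sample group 1 and 811, 793 and 801 FPM in sample group 3, so that only the latter group lies above the controls. Its log2 fold change was 0.43 ± 0.14 (SE, adjusted p = 0.0098). Hsp90ab1 (ENSRNOG00000019834, chromosome 9), the constitutive form, was at 527 to 616 FPM (median 607, n = 6) and at 672 to 812 FPM (median 731, n = 6) without overlap, with a log2 fold change of 0.31 ± 0.07 (adjusted p = 0.000523). In NRK-49F cells neither passed. Hsp90aa1 had 522 to 564 FPM at pH 7.4 and 674, 500, 551, 565 and 511 FPM at pH 6.0, a change of 0.06 ± 0.15 (adjusted p = 0.802). Hsp90ab1 had 1057 to 1110 FPM and then 1051, 1124, 1274, 1237 and 1282 FPM, a change of 0.14 ± 0.07 (adjusted p = 0.173).

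Hspb8 (ENSRNOG00000022392, chromosome 12), the small heat shock protein that works with Bag3 in chaperone-assisted autophagy, passed the test in both lines at very different levels. In NRK-49F cells it was at 108 to 131 FPM (median 117, n = 6) at pH 7.4 and at 240, 193, 209, 204 and 172 FPM at pH 6.0. These groups do not overlap, which held for 20.6% of all genes (10.4% with higher and 10.2% with lower values at pH 6.0), and the log2 fold change was 0.79 ± 0.20 (SE, adjusted p = 0.00506). In NRK-52E cells it was at 2.88, 1.40 and 0.604 FPM in sample group 1 and 0.865, 0.436 and 0.679 FPM in sample group 3 at pH 7.4, from 8 to 103 counts. At pH 6.0 it was between 2.81 and 4.13 FPM (median 3.61, n = 6), from 51 to 142 counts, and the log2 fold change was 1.53 ± 0.27 (adjusted p = 3.18e-05). The highest control, A021, lies inside the range of pH 6.0. That library also had the highest levels of Col1a2 (52.9 FPM) and Pdgfra (4.73 FPM) of the NRK-52E controls, and A022, next in Hspb8, was next in both with 15.4 and 2.21 FPM, beside 0.415 to 10.9 and 0.679 to 1.64 FPM in the other 4. Signal from NRK-49F cells as their part in these Hspb8 values was not tested. Without A021 the change in NRK-52E cells was 2.17 ± 0.19 (adjusted p = 1.27e-09). The difference of both responses was 0.74 ± 0.34 (adjusted p = 0.0842), and without A021 it was 1.39 ± 0.22 (adjusted p = 3.64e-05), past the threshold.

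The ratio of Hspb8 to Bag3 counts, free of library scaling, was the only one of 5 ratios to change, in 10 exact two-sided permutation tests adjusted together. Its mean log2 value went from -6.96 ± 1.02 (SD, n = 6) to -4.91 ± 0.24 (n = 6) in NRK-52E and from 0.14 ± 0.13 (n = 6) to 0.60 ± 0.15 (n = 5) in NRK-49F cells, both with an adjusted p of 0.02165. The change of Hspb8/Bag3 in NRK-52E cells rests on the low-count controls of that line described above. Hsp90aa1/Hsp90ab1, Hspe1/Hspd1, Hsph1/Hspa8 and Dnajb1/Hspa8 had adjusted p from 0.2742 to 0.9307 in these permutation tests. When A035 alone was left out, 2 of them passed in NRK-52E cells, Hspe1/Hspd1 with a log2 change of 0.27 and Hsph1/Hspa8 with -0.21 (both adjusted p = 0.0433, exact permutation test). Without A042, Hsp90aa1/Hsp90ab1 passed in NRK-49F cells, with -0.19 (adjusted p = 0.0317, exact permutation test).

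Hspb1 (ENSRNOG00000023546, chromosome 12), a small heat shock protein known to guard actin filaments, rose in NRK-52E cells by 0.52 ± 0.19 on the log2 scale (SE, adjusted p = 0.0234). Its controls were at 252 to 288 FPM in 5 libraries and at 458 FPM in A035, and the samples at pH 6.0 at 334, 360 and 433 FPM in sample group 1 and 504, 454 and 530 FPM in sample group 3. Only A035 overlaps the samples at pH 6.0. The call was lost without A023 (adjusted p = 0.0526) or A038 (adjusted p = 0.0556), and without A035 the change was 0.68 ± 0.19 (adjusted p = 0.00335). In NRK-49F cells Hspb1 was at 147 to 274 FPM (median 186, n = 6) at pH 7.4 and at 464, 218, 237, 262 and 196 FPM at pH 6.0, a change of 0.47 ± 0.20 (adjusted p = 0.0856). The highest of these is A042, and without that library the change was 0.20 ± 0.18 (adjusted p = 0.453). Without A041 or A056 the test passed, with adjusted p of 0.0375 and 0.0428, and with the sample group as a block it passed as well (0.49 ± 0.18, adjusted p = 0.0368).

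Of the mitochondrial pair, Hspd1 (ENSRNOG00000014525, chromosome 9), the chaperonin itself, passed in both lines with small changes. In NRK-52E cells it was at 214 to 251 FPM (median 223, n = 6) and at 230 to 282 FPM (median 262, n = 6), a log2 fold change of 0.18 ± 0.08 (SE, adjusted p = 0.0432), and the call was lost when any of 8 libraries was left out (adjusted p up to 0.095). In NRK-49F cells it was at 226 to 270 FPM (median 244, n = 6) and at 363, 268, 294, 300 and 274 FPM, with 0.30 ± 0.08 (adjusted p = 0.0065). Only the lowest sample at pH 6.0 lies inside the control range there. Hspe1 (ENSRNOG00000051624, chromosome 9), its co-chaperonin, did not pass in either line, at 0.38 ± 0.18 (adjusted p = 0.0675) and 0.33 ± 0.18 (adjusted p = 0.192). Its NRK-52E controls were at 98.8 to 122 FPM in 5 libraries and at 174 FPM in A035, and the samples at pH 6.0 at 123 to 219 FPM (median 159, n = 6). In NRK-49F cells it was at 88.7 to 145 FPM and then at 220, 109, 126, 155 and 93.3 FPM, with A042 again the highest. Without A035, Hspe1 passed in NRK-52E cells (0.50 ± 0.17, adjusted p = 0.0169), as it did without A024 (adjusted p = 0.0362) or A042 (adjusted p = 0.0318). It also passed there with all samples under RLE scaling (adjusted p = 0.0422), with raw library sizes (adjusted p = 0.0265), by DESeq2 (adjusted p = 0.0362) and in a fit of this line alone (adjusted p = 0.012), so the call on Hspe1 depends on the scaling and the test.

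High values of Hspb1 and Hspe1 stood in libraries rich in ribosomal protein transcripts. A035 was highest in both genes among the NRK-52E controls and A042 among the NRK-49F samples at pH 6.0, and these were the libraries with the highest ribosomal protein sums of their conditions. With that sum as a covariate, an alternative added after the data were seen, Hspe1 in NRK-52E cells changed by 0.33 ± 0.09 (adjusted p = 0.00148) and Hspa8 by 0.18 ± 0.08 (adjusted p = 0.0434), and 9 of the 10 genes were higher, where 28.6% of all genes were. In NRK-49F cells the changes were 0.26 ± 0.11 for Hspb1 (adjusted p = 0.0715) and 0.11 ± 0.09 for Hspe1 (adjusted p = 0.36), and Hsp90ab1 passed with 0.16 ± 0.06 (adjusted p = 0.0306), so that 3 genes were higher where 18.2% of all genes were. The responses of 3 genes differed between the lines in that fit, Hspa4, Dnajb1 and Hspa8 (0.29 ± 0.11, adjusted p = 0.0312), where 50.1% of all genes did. With A021, A035 and A042 left out together, also added later, 8 genes were higher in NRK-52E and 2 in NRK-49F cells, beside 24.5% and 12.8% of all genes, and the response of 3 differed between the lines, beside 39.8% of all genes.

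**Figure D3:**
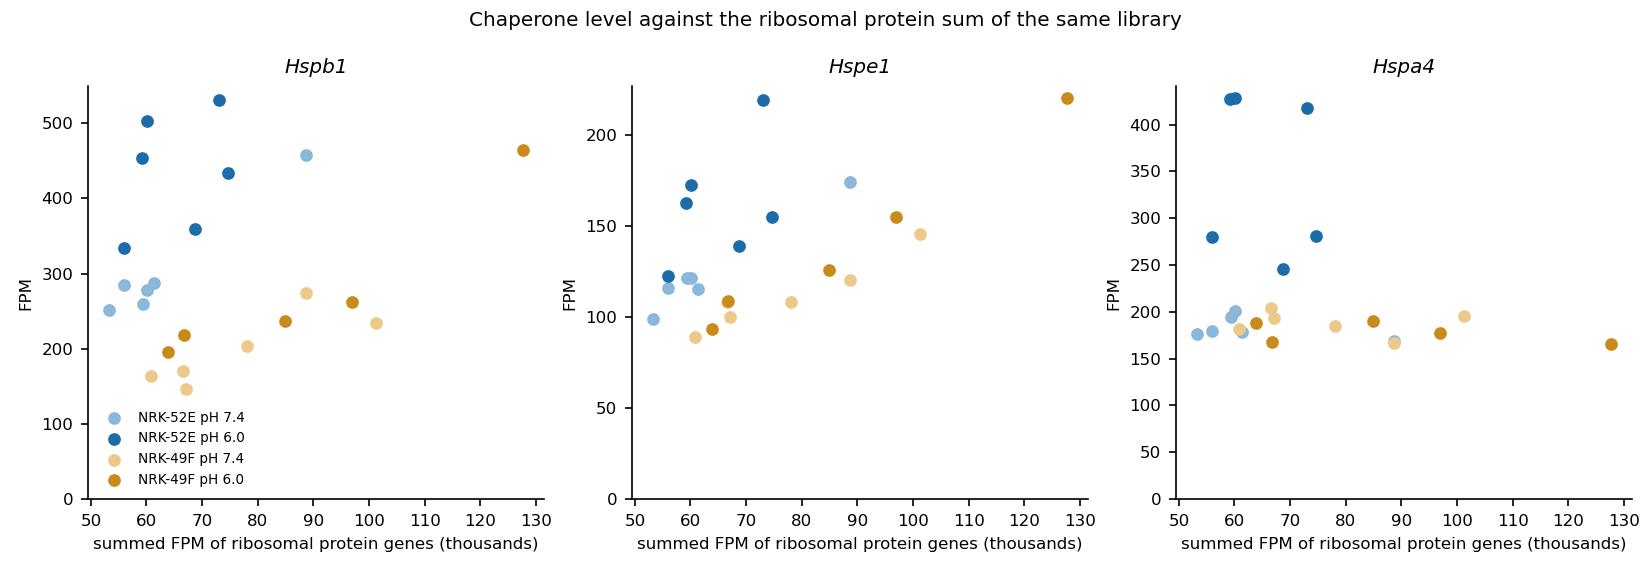
FPM of Hspb1, Hspe1 and Hspa4 in each of the 23 libraries against the summed FPM of 76 ribosomal protein genes of the same library, coloured by condition. The highest points of NRK-49F at pH 6.0 (A042, sum 127747 FPM) and of the NRK-52E controls (A035, sum 88615 FPM) are high in Hspb1 and Hspe1, while in Hspa4 they are the lowest of their conditions (166 and 169 FPM).

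The response of NRK-52E cells differed between both sample groups for 4 genes, Hspa4, Dnajb1, Hsp90aa1 and Hsph1, all with more in sample group 3. In a fit of this line alone with an interaction of pH and sample group, 4 of 10 passed where 16% of all 13377 genes did in either direction. The difference of the log2 changes was 0.67 ± 0.12 for Hspa4 (SE, adjusted p = 0.00228), 0.55 ± 0.14 for Dnajb1 (adjusted p = 0.0176), 0.52 ± 0.12 for Hsp90aa1 (adjusted p = 0.0108) and 0.37 ± 0.11 for Hsph1 (adjusted p = 0.028). The other values come from fits of sample groups 1 and 4, or 3 and 6, of both lines. Within sample group 1, Hspa4 changed by 0.56 ± 0.09 (adjusted p = 0.000405) and within sample group 3 by 1.21 ± 0.09 (adjusted p = 1.71e-07). Dnajb1, Hsp90aa1 and Hsph1 did not pass within sample group 1 (0.09, 0.14 and -0.10, adjusted p = 0.424, 0.369 and 0.306). All of them passed within sample group 3 (0.63, 0.64 and 0.25, adjusted p = 0.000329, 6.65e-05 and 0.0308). Hsp90ab1 had 0.18 ± 0.09 (adjusted p = 0.133) and 0.44 ± 0.10 (adjusted p = 0.0016), and its interaction did not pass (adjusted p = 0.109). The 4 differences also passed without A035. In the NRK-52E samples at pH 6.0 the summed fibroblast markers were at 1842 to 1929 FPM in sample group 1 and 2899 to 3120 FPM in sample group 3. Most of this sum was Col3a1, with a mean of 2402 FPM over both sample groups, beside 25.1 FPM for Col1a1 and 0.347 FPM for Col1a2. The part of these markers was not tested. With 3 samples per pH in each sample group, 2 of the 10 genes were called in either direction in sample group 1, where 46% of all genes were. These were Hspa4 and Hspb8, both higher at pH 6.0. In sample group 3, 7 were called in either direction, all higher, where 55.9% of all genes were called. The share of all genes called as higher was not computed for either sample group.

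In the samples of NRK-49F cells no such split was called, but sample group 4 holds only 2 samples at pH 6.0, A042 and A043. The interaction had its largest SE for Hspb1 (-0.34 ± 0.41) and Hspe1 (-0.56 ± 0.38), where a difference may be missed. In that line 0 of 10 interactions passed by edgeR's quasi-likelihood or likelihood ratio test. By the former the 10 had unadjusted p of 0.173 or more, and 0 of 13659 genes passed (0% of all). Of those genes 381 had an unadjusted p under 0.05, against 4189 in NRK-52E cells. Hspb8 rose within both sample groups 4 and 6, by 0.90 ± 0.29 (SE, adjusted p = 0.0459) and 0.70 ± 0.13 (adjusted p = 0.00272). Hspd1 passed within sample group 4 (0.40 ± 0.12, adjusted p = 0.0395), which holds A042, and not within sample group 6 (0.22 ± 0.09, adjusted p = 0.119). Hspa4 was at -0.10 ± 0.10 (adjusted p = 0.553) and -0.09 ± 0.08 (adjusted p = 0.517). Since what a sample group is was not given, its part in the NRK-52E response was not tested beyond these fits.

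**Figure D4:**
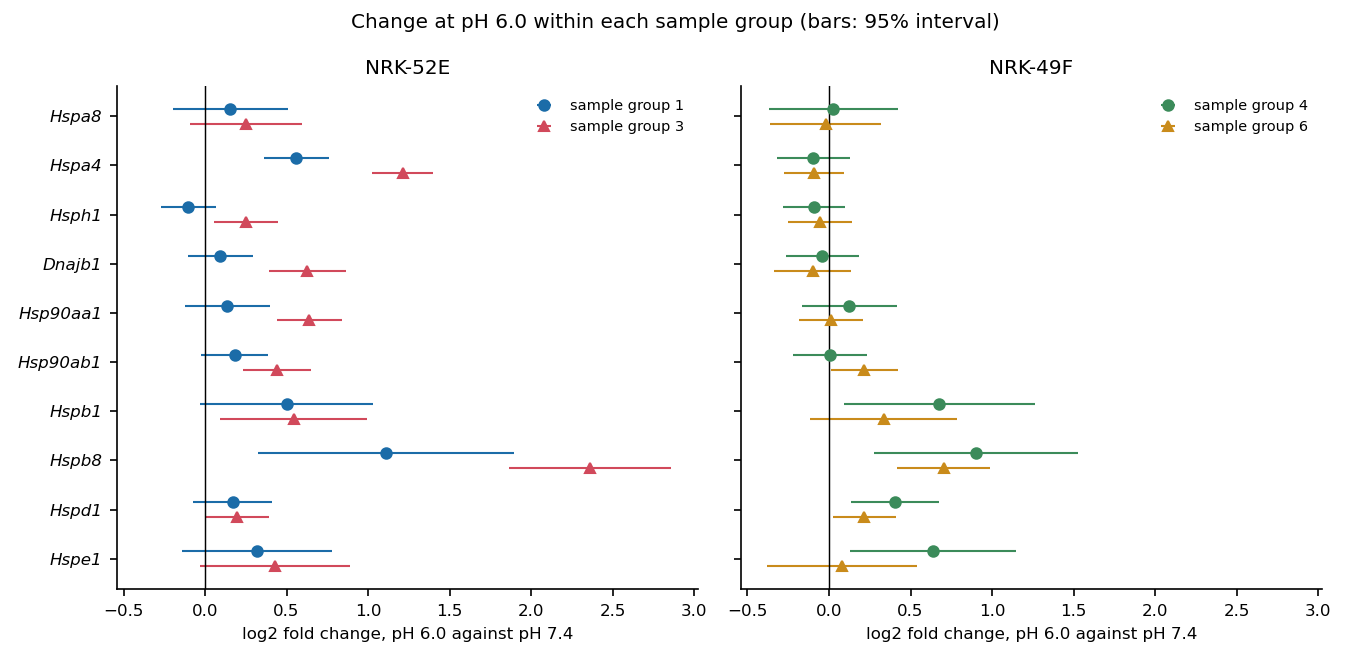
Log2 fold change from pH 7.4 to pH 6.0 within each sample group, with its 95% interval, for NRK-52E (left) and NRK-49F cells (right) on the same scale. In NRK-52E cells the intervals of Hspa4, Dnajb1 and Hsp90aa1 in sample groups 1 and 3 do not overlap, and in NRK-49F cells those of all 10 genes do.

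Between the lines, Hspb8 had the largest difference of the 10 genes, and Hspa4 and Dnajb1 were called at pH 6.0 and not at pH 7.4. At pH 7.4, 2 of the 10 had more and 3 less mRNA in NRK-52E than in NRK-49F cells, where 68.8% of all genes were called (35% higher and 33.9% lower). At pH 6.0, 4 were higher and 4 lower, where 75.5% of all genes were called (36.6% higher and 38.9% lower). The log2 difference, NRK-52E minus NRK-49F, of Hspb8 was -6.57 ± 0.27 (SE) at pH 7.4 and -5.83 ± 0.25 at pH 6.0 (adjusted p = 3.07e-16 and 5.03e-16). That of Hspa8 was -1.40 ± 0.13 and -1.20 ± 0.14 (adjusted p = 9.94e-10 and 2.22e-08), and that of Hsp90ab1 -0.88 ± 0.07 and -0.70 ± 0.07 (adjusted p = 6.76e-11 and 5.53e-09). Hsph1 was higher in NRK-52E by 0.81 ± 0.10 and 0.98 ± 0.10 (adjusted p = 4.85e-08 and 4.85e-09). At either pH, the samples of both lines did not overlap in Hspb8, Hspa8, Hsp90ab1 or Hsph1, and at pH 6.0 also not in Hspa4 or Dnajb1. These are 4 and 6 of the 10 genes, beside 50.7% of all genes at pH 7.4 and 57.3% at pH 6.0.

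Hspa4 and Dnajb1 did not pass between the lines at pH 7.4, with -0.04 ± 0.12 (SE, adjusted p = 0.791) and 0.02 ± 0.11 (adjusted p = 0.882), and were higher in NRK-52E at pH 6.0, with 0.96 ± 0.12 (adjusted p = 1.56e-07) and 0.47 ± 0.11 (adjusted p = 0.000559). Hspb1 was higher in NRK-52E by 0.61 ± 0.20 at pH 7.4 and 0.66 ± 0.21 at pH 6.0 (adjusted p = 0.00781 and 0.00575), and both calls were lost in the samples of sample groups 1 and 4 alone (0.31 and 0.13, adjusted p = 0.291 and 0.681). Hsp90aa1 passed at neither pH (-0.19 ± 0.14 and 0.18 ± 0.15, adjusted p = 0.224 and 0.27). At pH 7.4 it passed as lower in NRK-52E with the sample group as a block (-0.48 ± 0.11, adjusted p = 0.000523). It also did so in sample groups 1 and 4 alone (-0.35 ± 0.12, adjusted p = 0.0235). With raw library sizes it passed as higher at pH 6.0 (0.40 ± 0.14, adjusted p = 0.0112). At pH 6.0 its direction turned with the samples, from -0.34 ± 0.13 (adjusted p = 0.0411) between sample groups 1 and 4 to 0.57 ± 0.09 (adjusted p = 0.000104) between sample groups 3 and 6. Hspd1 did not pass at pH 7.4 (-0.10 ± 0.08, adjusted p = 0.264) and was lower in NRK-52E at pH 6.0 (-0.22 ± 0.08, adjusted p = 0.0185), which was lost without A025 (adjusted p = 0.0508) or A042 (adjusted p = 0.0956) and turned to 0.0063 ± 0.06 (adjusted p = 0.925) with raw library sizes. Hspe1 passed at neither pH (0.16 ± 0.18 and 0.20 ± 0.19, adjusted p = 0.443 and 0.325). At pH 6.0 it passed without A042 (0.42 ± 0.17, adjusted p = 0.0284) and in sample groups 3 and 6 alone (0.57 ± 0.21, adjusted p = 0.0288). With raw library sizes it passed at both pH values (0.34 ± 0.14 and 0.44 ± 0.15, adjusted p = 0.0363 and 0.0096). That scaling also moved the median of all genes, to 0.21 and 0.19.

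Partners of these chaperones were counted from lists of general knowledge, chosen with earlier results of these data known. Their shares beside those of all genes are thus a description. Changes are given over both sample groups of a line. Of 92 tested genes in 8 lists, 36 were higher (39.1%) and 17 lower (18.5%) at pH 6.0 in NRK-52E cells, beside 24.7% and 36.6% of all genes tested. In NRK-49F cells 17 were higher (18.5%) and 6 lower (6.52%), beside 14.5% and 14.4%. Among the heat shock factors and their regulators, 1 of 5 rose and 2 fell in NRK-52E cells. Among fibroblasts 0 passed by edgeR, 2 had an unadjusted p under 0.05 and 1 passed by DESeq2, all higher. Hsf1, the activator of heat shock genes, rose in NRK-52E cells by 0.91 ± 0.08 (SE, adjusted p = 4.69e-10), and Hsbp1, a binding protein that restrains it, fell by 0.70 ± 0.13 (adjusted p = 6.62e-05). Hsf2 was at 0.09 ± 0.07 (adjusted p = 0.266). In NRK-49F cells Hsf1 was at 0.11 ± 0.08 (adjusted p = 0.322).

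Of the co-chaperones of Hsp70, 6 of 10 rose and 0 fell in NRK-52E cells, with a median log2 change of 0.49, and 2 rose and 1 fell in NRK-49F cells, with a median of 0.03. The strongest was Serpinh1, a collagen chaperone of the endoplasmic reticulum that was counted with this list, with 1.06 ± 0.11 (SE, adjusted p = 1.06e-08) in NRK-52E cells. Bag3, the partner of Hspb8, was at -0.12 ± 0.08 (adjusted p = 0.207) in NRK-52E and rose by 0.32 ± 0.09 (adjusted p = 0.00682) in NRK-49F cells. There Bag4 rose most, by 0.57 ± 0.12 (adjusted p = 0.000845), and Bag5 fell by 0.36 ± 0.09 (adjusted p = 0.00299). Of the J proteins, 6 of 17 rose and 2 fell in NRK-52E cells (median -0.06) and 3 rose and 4 fell in NRK-49F cells (median 0.06), with Dnajb2 at 0.84 ± 0.08 (adjusted p = 7.58e-09) and Dnajc7 at -0.15 ± 0.06 (adjusted p = 0.0191) in NRK-52E cells. Among fibroblasts Dnajc9, a J protein that also binds histones, was at 0.52 ± 0.14 (adjusted p = 0.0079) and Dnajb5 at -0.43 ± 0.12 (adjusted p = 0.0102). Among other Hsp70 and Hsp110 proteins, 1 of 6 rose and 3 fell in NRK-52E cells, and 0 rose and 1 fell in NRK-49F cells. Hspa4l, close kin of Hspa4, rose by 1.08 ± 0.17 (adjusted p = 9.4e-06) in NRK-52E cells, and Hspa14, which works at the ribosome, fell by 0.36 ± 0.11 (adjusted p = 0.0113) in NRK-49F cells.

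Of the Hsp90 co-chaperones, 9 of 17 rose and 4 fell in NRK-52E cells (median 0.24), and 4 rose and 0 fell in NRK-49F cells (median 0.10). Ahsa2, a homolog of the activator of the Hsp90 ATPase, rose by 1.00 ± 0.10 (SE, adjusted p = 3.89e-09) in NRK-52E cells, Ruvbl1 fell by 0.64 ± 0.12 (adjusted p = 7.74e-05), and Fkbp4, a co-chaperone of steroid receptors, rose by 0.41 ± 0.11 (adjusted p = 0.00815) in NRK-49F cells. Of 13 genes of the chaperonin CCT and prefoldin, which fold actin and tubulin, 4 rose and 1 fell in NRK-52E cells. Among fibroblasts 0 passed by edgeR or DESeq2, and 2 had an unadjusted p under 0.05. Pfdn2 and Pfdn4, both prefoldin subunits, went opposite ways in NRK-52E cells, with 0.91 ± 0.09 (adjusted p = 9.13e-09) and -0.65 ± 0.12 (adjusted p = 7.99e-05). Of other small heat shock proteins, 1 of 6 rose and 2 fell in NRK-52E and 3 rose in NRK-49F cells. Hspb6 rose in both, by 1.66 ± 0.14 (adjusted p = 3.15e-10) and 1.46 ± 0.14 (adjusted p = 2.03e-08), and Hspb11, known as a part of the transport machinery of cilia, fell by 0.73 ± 0.14 (adjusted p = 8.23e-05) in NRK-52E cells.

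Of 18 other mitochondrial chaperones and proteases, 8 rose and 3 fell in NRK-52E cells (median 0.20), and 5 rose and 0 fell in NRK-49F cells (median 0.23). Lonp1, the matrix protease, rose by 1.84 ± 0.11 (SE, adjusted p = 2.2e-12) and 0.56 ± 0.11 (adjusted p = 0.000575). Hspa9, the mitochondrial Hsp70 that hands clients to Hspd1, rose by 1.12 ± 0.12 (adjusted p = 1.8e-08) and 0.54 ± 0.12 (adjusted p = 0.00163), beside 0.18 and 0.30 for Hspd1 itself. Afg3l2, an inner membrane protease, rose most of this list in NRK-49F cells, by 1.24 ± 0.10 (adjusted p = 2.69e-09), and Dnajc15, a J protein of the import channel, fell by 0.71 ± 0.18 (adjusted p = 0.00167) in NRK-52E cells. Of 11 chaperones of the endoplasmic reticulum, 8 rose and 1 fell in NRK-52E cells and 1 rose and 1 fell in NRK-49F cells. In NRK-52E cells Hspa5 was at 1.35 ± 0.24 (adjusted p = 3.74e-05) and Hsp90b1 at 0.74 ± 0.16 (adjusted p = 0.000338). Their samples spread widely at pH 6.0, over 1110 to 3656 FPM for Hspa5 and 865 to 1681 FPM for Hsp90b1. At pH 7.4 they were at 805 to 1010 and 603 to 913 FPM. Values by sample group are not given for them. Those 2 genes were at -0.18 ± 0.25 (adjusted p = 0.647) and 0.18 ± 0.17 (adjusted p = 0.451) in NRK-49F cells. Hyou1, an Hsp110 of that compartment, rose there by 0.59 ± 0.11 (adjusted p = 0.0002), and Pdia4 fell in both lines, by 0.34 ± 0.09 (adjusted p = 0.00225) and 0.39 ± 0.10 (adjusted p = 0.00348).

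**Figure D5:**
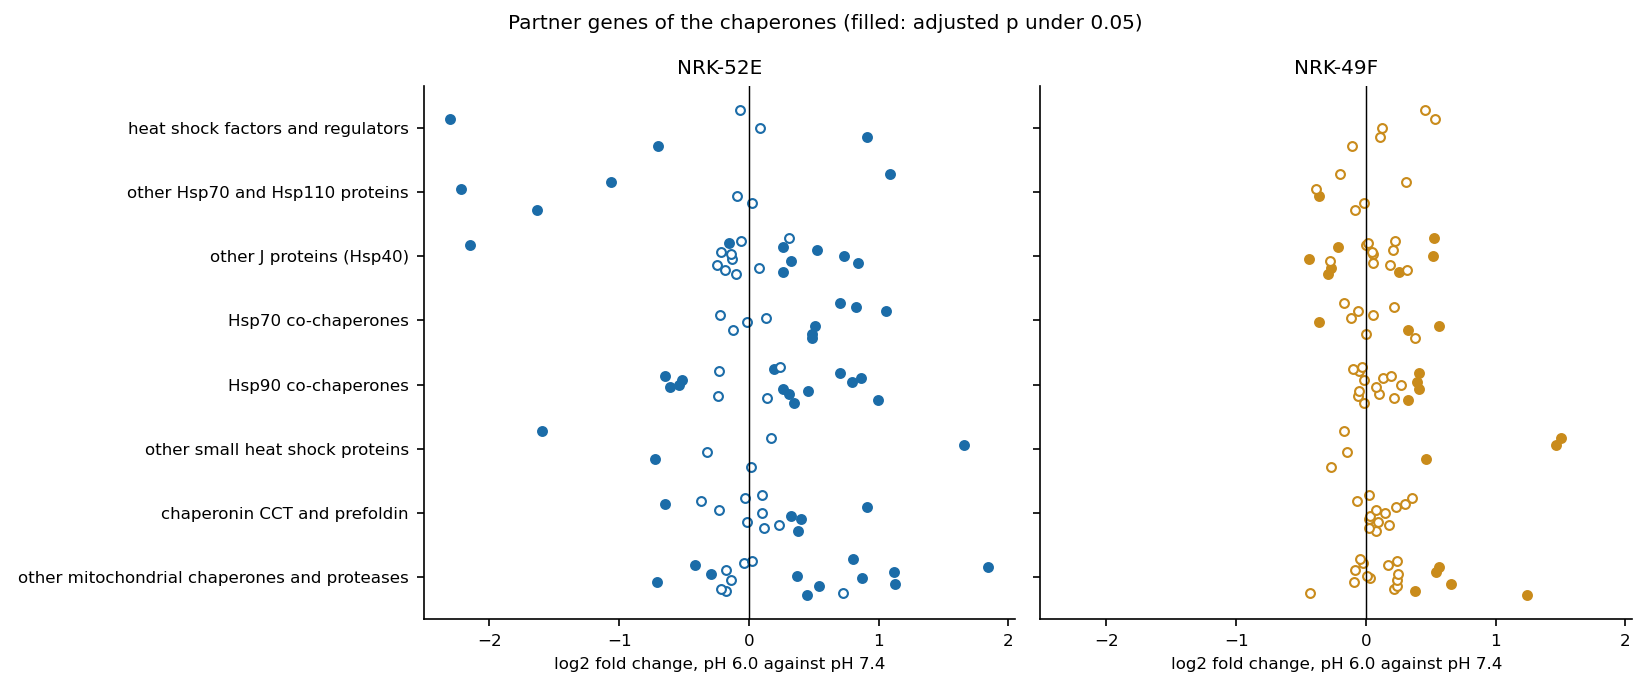
Log2 fold change from pH 7.4 to pH 6.0 of 92 genes in 8 lists around the chaperones (vertical order within a list is alphabetical), filled where the adjusted p was under 0.05. In NRK-52E cells (left) 36 filled points lie right of 0 and 17 left of it, and in NRK-49F cells (right) 17 and 6.

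The genes most alike each chaperone were sought by Pearson's coefficient of log2(FPM + 1) over the 23 samples among 10838 genes. Since these samples share both lines, a gene that differs between the lines resembles any other such gene, and the coefficients are a description. Next to Hspb8 were Mocos (0.996) and Oaf (0.994), next to Hsp90ab1 Irf1 and Dglucy (0.983 each) and next to Hsph1 Sox13 (0.982) and Neto2 (0.977), as genes of the line difference. Next to Hspa4 stood Cebpz (0.98) and Srp54a (0.971), next to Dnajb1 Abhd14a (0.927) and Dnajb11 (0.911), a J protein of the endoplasmic reticulum, and next to Hsp90aa1 Kpna2 (0.936) and Ttc39c (0.928). Hspb1 was closest to Nat9 (0.961) and Pcyt2 (0.957), Hspe1 to Mrps34 (0.961) and Map1lc3a (0.959) and Hspd1 to Acp1 (0.945) and Prkcsh (0.937). Among the 10 chaperones, the coefficients ran from -0.927 (Hspb8 and Hsph1) to 0.967 (Hspb8 and Hsp90ab1), with Hspb8 and Hspa8 at 0.947 and Hspa8 and Hsp90ab1 at 0.916, all genes called between the lines. Hspb1 and Hspe1 had 0.865, Dnajb1 and Hspa4 0.847, and Hspd1 and Hspe1, which share a promoter region, 0.65.

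Set beside the promoters, the 4 genes with an element of 3 units had log2 changes in NRK-52E cells of 0.09 (Hsph1), 0.18 (Hspd1), 0.21 (Hspa8) and 0.38 (Hspe1). The genes with the shorter element alone had 0.38 (Dnajb1), 0.52 (Hspb1) and 1.53 (Hspb8), and those with no match in their windows 0.31 (Hsp90ab1) and 0.92 (Hspa4). These values are a description of 9 genes, and no test was made of them.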

How the data were processed

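The authors mapped the read pairs of poly(A) libraries with HISAT2 and counted them on exons of Ensembl genes with featureCounts, reads with several mapping places included. The deposited table holds these raw counts, without normalization. The genome is rn7 in the study's methods and rn6 in the submitters' processing notes, and the strand setting is not given in the sources used here. Because multi-mapping reads were counted, a chaperone gene can carry reads of its copies. 23 columns of the table were used, and 13 others, which match no sample label at hand, were not.

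All 23 samples entered a single model with 4 conditions in edgeR 4.0.16 (R 4.3.3). Of 30452 genes, 14777 passed filterByExpr (minimum count 10, minimum total 15). Libraries were scaled by TMM and contrasts were tested by the quasi-likelihood F test with Benjamini-Hochberg adjustment over all tested genes (threshold 0.05). An interaction of pH and sample group was fitted in each line alone. FPM were computed with edgeR's cpm function from TMM-scaled library sizes. For ratios of raw counts an exact permutation test, two-sided, was used (SciPy 1.17.1). Of these steps, only the main edgeR fit was tested on simulated data, for the acid response of NRK-52E cells. Alternatives changed the scaling, filter, test (DESeq2 1.42.0 among them), samples, covariates and depth. Figures were drawn with matplotlib 3.10.9 in Python 3.11.15.

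The members and the lists of related genes were chosen with earlier results of these data known. Named are all members, the strongest called change each way of every list among genes whose mean level reached 5 FPM, a few fixed regulators and chaperones (Hsf1, Hsf2, Hspa9, Bag3, Hspa5 and Hsp90b1 among them), and the 2 genes most alike each member. 6 genes of the lists had no row under their symbol and were not analysed here, the inducible Hsp70 genes Hspa1a and Hspa1b among them. Promoter sequences came from RefSeq (assembly GRCr8), another build than that of the counts, and were matched by symbol. No gene lengths of the annotation used were at hand, so levels were compared between samples and not between genes. The labels do not say whether the samples of a condition came from separate cultures, and where they did not, p-values measure only the spread between these samples, which may then be technical.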

Additional observations from a re-analysis of the deposited data

Results flagged for a closer look

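In 2 samples, 3 values stood far from the others of their condition by Dixon's test, among 40 sets of values tested, of which about 1 in 20 is picked by chance. Hspb1 was at 458.24 FPM and Hspe1 at 174.28 FPM in A035, an NRK-52E control, and Hspb1 at 464.23 FPM in A042, an NRK-49F sample at pH 6.0. Both libraries had the highest ribosomal protein sums of their conditions. The acid responses with that sum as a covariate are given above, and whether the sums account for these 3 values was not tested.

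The acid response of Dnajb1 was larger in NRK-52E than in NRK-49F cells by 0.4556 on the log2 scale and that of Hspa4 by 0.9992, each by the test of the difference itself. For Dnajb1 this was lost in sample groups 1 and 4 alone (0.13 ± 0.14, SE, adjusted p = 0.546). Within NRK-52E cells, the acid response was larger in sample group 3 than in sample group 1 by 0.3722 for Hsph1, 0.5524 for Dnajb1, 0.6729 for Hspa4 and 0.5227 for Hsp90aa1 on the log2 scale, each by an interaction test.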

How the results depend on the processing

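The scaling, the filter, the test, the samples, the covariates and the depth were changed one at a time. Among the 10 genes, the number higher at pH 6.0 in NRK-52E cells was 7 with all samples, 2 in sample groups 1 and 4 alone, and 5 to 8 with 1 library left out. In NRK-49F cells it was 2, and 1 in sample groups 3 and 6 alone or with at least 10 counts in every sample, a filter that dropped Hspb8. It was 3 with the sample group as a block, without A041 or without A056 (2 to 3 with 1 library left out), and 3 with the ribosomal protein sum as a covariate. The number whose response differed between the lines was 2, and 4 with DESeq2, in sample groups 3 and 6 alone or with the sample group as a block, and 1 in sample groups 1 and 4 alone. Of all 14777 genes, 6120 differed by the main edgeR test and 6525 by DESeq2. The number that differed between the sample groups of NRK-52E cells was 4, and 8 with the ribosomal protein sum as a covariate, which was added after the data were seen. For that last fit the share of all genes was not computed, so whether calls rose among all genes is not known. Shares were likewise not computed with the sample group as a block, with 1 library left out or with at least 10 counts in every sample. Nor were they for the difference between the lines in part of the sample groups. For the acid response, 46% of all genes were called in NRK-52E cells in sample groups 1 and 4 alone. In NRK-49F cells 18.4% were called in sample groups 3 and 6 alone, both in either direction. Of the 10 ratio tests 2 passed, and 2 to 4 with 1 library left out, with 4 without A035. The causes were not tested. Between the lines at pH 6.0, Hspd1 turned to 0.0063 with raw library sizes and Hsp90aa1 to -0.3371 in sample groups 1 and 4. Raw library sizes moved the median of all genes between the lines from 0.02 to 0.21 at pH 7.4 and from -0.02 to 0.19 at pH 6.0. Adding the counts of annotated copies to a gene was not run, since no row carried a symbol tied to 1 of the 10. No paired analysis was possible because replicate codes are not shared between the pH values. Depth limits Hspb8 in NRK-52E controls, with as few as 8 counts.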
